A study of Homo sapiens with 48 samples.

Results

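The BCL2 family is the group of proteins that decides whether a cell opens its mitochondria and dies by apoptosis. The 10 members described here were taken by gene symbol from a count table of 36843 genes. The rule itself uses no measured value, but the family was chosen with earlier results of these data known. They are the BH3-only genes BMF, BBC3, PMAIP1, BCL2L11 and BIK, the antiapoptotic genes BCL2, BCL2L1 and MCL1, and the effectors BAX and BAK1. Each symbol matched 1 gene, and all 10 members passed the filter on low counts in every fit.

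BH3-only proteins are the sensors of the family: stress raises or activates them, and they bind the groove of the antiapoptotic proteins or activate the effectors directly. BAX and BAK1 then form pores in the outer mitochondrial membrane, cytochrome c leaves the mitochondrion, the apoptosome assembles on APAF1 and caspases are activated. Several BH3-only genes are controlled mainly through their mRNA, by p53 (BBC3, PMAIP1), FOXO factors (BCL2L11) and stress-induced factors such as ATF4 and DDIT3. Pancreatic cancer cells commonly rely on MCL1 and on BCL-XL, the main product of BCL2L1.

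The study concerns ZNF274, a KRAB zinc finger protein that recruits silencing factors to chromatin, in 3 established human pancreatic ductal adenocarcinoma lines. ASPC1 and CFPAC1 cells each gave 4 groups of 3 RNA-seq libraries: a control siRNA (siCTRL), an siRNA against ZNF274 (siZNF274), the solvent DMSO, and 5 µM azacitidine (AZA), a nucleoside that blocks DNA methyltransferases. Panc3.27 cells gave 2 groups of 3 libraries, empty vector and ZNF274 overexpression (OE). The length of treatment, the siRNA sequences and the promoter of the vector are not stated here because no source used gives them. In a separate experiment, ASPC1 cells expressed hairpins (shCTRL or shZNF274) under 1 µg/ml of doxycycline over 9 days, and the resulting list of regions with H3K9me3, a histone mark of silent chromatin, was used below. The design text speaks of biological triplicates, but nothing says whether replicates were separate cultures, so p-values measure the spread between these libraries.

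Library totals ran from 31415743 to 43383141 counts. Levels are given as CPM, counts scaled to library size with TMM factors over all 30 libraries. No gene lengths were given, so the members are not ranked against each other by level. Marker levels are summed within each list, and highly counted genes weigh most in these sums. The libraries labelled siZNF274 did not have less ZNF274 mRNA than their controls: the fold was 1.11 in ASPC1 (20.3 ± 3.07 against 18.4 ± 2.78 CPM, SD, n = 3) and 0.955 in CFPAC1 (32.4 ± 1.10 against 33.4 ± 1.06 CPM). The edgeR adjusted p was 0.305 and 0.423. These groups are therefore called the libraries labelled siZNF274 throughout. Azacitidine raised ZNF274 1.40-fold in ASPC1 and 1.12-fold in CFPAC1 (edgeR adjusted p = 0.00317 and 0.0464). ZNF274 was also 1.28-fold and 1.21-fold higher with siCTRL than with DMSO in these lines (edgeR adjusted p = 0.0277 and 0.00325). Overexpression raised ZNF274 from 46.2 ± 1.10 to 127.9 ± 1.54 CPM. The empty-vector level was above every ASPC1 and CFPAC1 group mean, although the design text describes the endogenous level of this line as low. All 7 ductal epithelial markers averaged over 1 CPM in each of the 10 groups, and the 7 acinar and islet markers summed to at most 0.278 CPM. Of the other lists, the 7 leukocyte markers summed to 4.32 to 288 CPM by group, with LYZ up to 287 CPM in ASPC1, while PTPRC was at most 0.124 CPM. The 6 fibroblast markers summed to 54.0 to 149 CPM, with LUM up to 145 CPM in ASPC1 and COL1A1 up to 145 CPM in CFPAC1, and PDGFRB was at most 0.635 CPM. The 4 endothelial markers summed to 0.480 to 52.96 CPM, with VWF highest in Panc3.27 at 52.2 CPM, and CDH5 was at most 0.0657 CPM.

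The sequences before the RefSeq starts of the BH3-only genes are shown because azacitidine blocks the methylation of CpG. These 250-base windows differ widely in CpG. They end at the base before the annotated start, come from RefSeq (GRCh38.p14, the same build as hg38), run 5′ to 3′ on the strand of the gene, and carry each CpG in capitals. Of the 10 members, 8 were found in that table, with 10 starts in all. BIK and MCL1 had no entry. Not every window lies outside the gene span of the count table, given further below. Those of BCL2L11 and BMF start 2 lie within it, and those of BMF start 1 and BBC3 overlap it in part.
BMF, start 1, chr15:40108880-40109129, minus strand: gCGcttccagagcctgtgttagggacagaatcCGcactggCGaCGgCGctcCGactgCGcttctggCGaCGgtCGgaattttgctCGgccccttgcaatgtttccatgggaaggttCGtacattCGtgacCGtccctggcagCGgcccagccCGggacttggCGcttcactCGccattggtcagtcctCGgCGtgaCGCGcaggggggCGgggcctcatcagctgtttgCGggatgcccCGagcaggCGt
BMF, start 2, chr15:40106967-40107216, minus strand: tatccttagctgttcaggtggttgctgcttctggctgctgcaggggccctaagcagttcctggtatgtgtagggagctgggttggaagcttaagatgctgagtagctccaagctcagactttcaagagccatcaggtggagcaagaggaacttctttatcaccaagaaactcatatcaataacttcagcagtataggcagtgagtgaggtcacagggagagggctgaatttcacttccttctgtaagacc
BBC3, chr19:47232668-47232917, minus strand: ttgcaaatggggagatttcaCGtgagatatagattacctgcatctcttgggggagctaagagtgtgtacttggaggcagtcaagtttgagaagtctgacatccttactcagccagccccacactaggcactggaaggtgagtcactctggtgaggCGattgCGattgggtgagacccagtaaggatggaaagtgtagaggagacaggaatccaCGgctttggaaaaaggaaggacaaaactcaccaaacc
PMAIP1, chr18:59899746-59899995, plus strand: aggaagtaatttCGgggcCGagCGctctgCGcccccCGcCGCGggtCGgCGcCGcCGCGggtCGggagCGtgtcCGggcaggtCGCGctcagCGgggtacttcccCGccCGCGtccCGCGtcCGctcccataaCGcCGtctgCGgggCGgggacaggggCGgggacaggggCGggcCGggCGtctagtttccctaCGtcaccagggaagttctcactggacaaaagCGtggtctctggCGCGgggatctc
BCL2L11, chr2:111120664-111120913, plus strand: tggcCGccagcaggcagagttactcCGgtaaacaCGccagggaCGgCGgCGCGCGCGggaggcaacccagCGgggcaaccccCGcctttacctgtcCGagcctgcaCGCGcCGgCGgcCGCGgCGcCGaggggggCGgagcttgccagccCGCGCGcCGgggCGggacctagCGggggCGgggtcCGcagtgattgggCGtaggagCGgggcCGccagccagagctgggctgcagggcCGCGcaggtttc

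The window of the outer BMF start held 26 CpG and that of the inner start 0. BBC3 held 4, PMAIP1 36 and BCL2L11 34, against a median of 17 over 21429 RefSeq windows of the same length. Among the other members BAX held 25 CpG, BCL2 24, BCL2L1 17 and 12 at its 2 starts, and BAK1 5. The GC box GGGCGG, read on both strands, was in 5 of the 10 member windows and in 54.3% of all windows. The FOXO core GTAAACA was found in 1 member window, that of BCL2L11, and in 2.46% of all windows. The E-box CACGTG was in the windows of BBC3, once, and BAX, with 4 copies, and in 7.39% of all. These are letter matches only, and DNA methylation itself was not measured.

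No member lay under H3K9me3. Of 63955 deposited H3K9me3 regions from ASPC1, 0 overlapped the body of any of the 10 members by 1 base or more, whereas 31.0% of 19955 protein-coding genes held such a region. Around the RefSeq starts, 0 of 8 members had a region within 5 kb, against 14.0% of 15193 protein-coding genes with an entry. Both shares include genes not expressed in these lines, whereas all members were expressed, and they were not matched for expression or gene length. Whether the family differs from expressed genes of like length was not tested. BAX (chr19:48954815-48961798, hg38) was the nearest, 5597 bases from a region, followed by BIK (chr22:43110750-43129712) at 12117 bases. BMF (chr15:40087890-40108892) lay 28864 bases from an intergenic region and BCL2L11 (chr2:111119378-111168445) 31984 bases from one inside an intron. The distance was 42057 bases for BCL2 (chr18:63123346-63320128) and 50816 for BAK1 (chr6:33572547-33580293). It was longer still for PMAIP1 (chr18:59899996-59904305), at 107123 bases, BCL2L1 (chr20:31664452-31723989), at 159396, MCL1 (chr1:150560895-150579738), at 160108, and BBC3 (chr19:47220822-47232766), at 222396. In the authors' deposited table, 0 of these 10 nearest regions were called changed between the hairpins, against 1.02% of the 63916 regions tested. The same table lists 3 of the 10 in 1 hairpin group only, those of BBC3 and BCL2L1 with shZNF274 and that of PMAIP1 with shCTRL, and 64.3% of all regions in both.

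**Figure D1:**
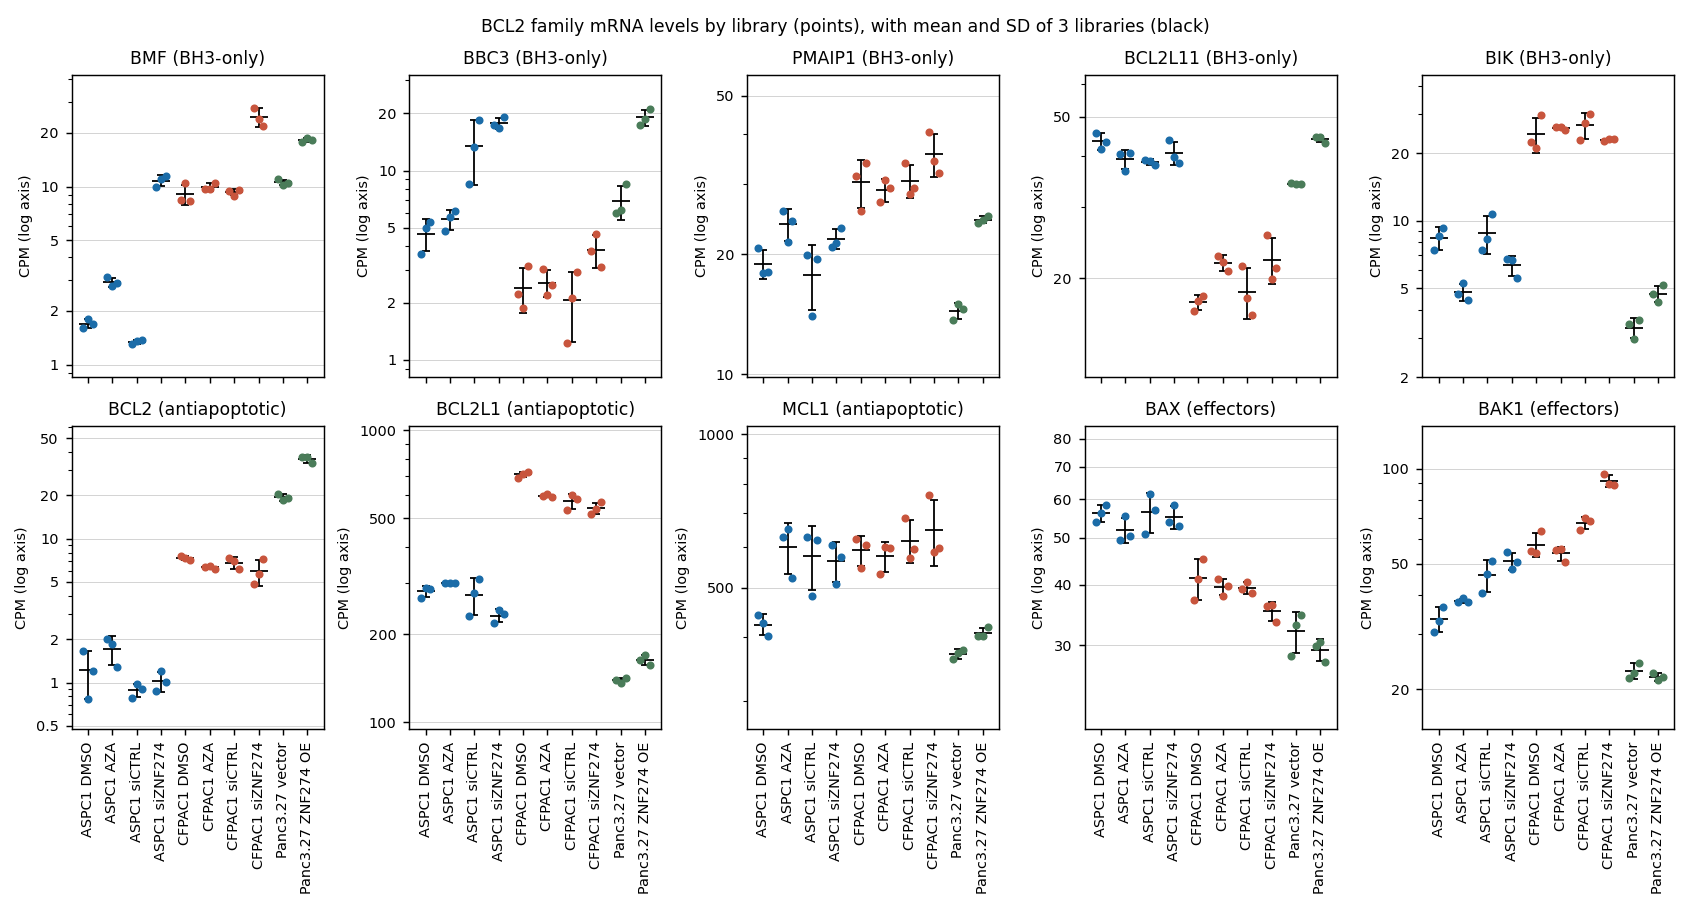
Level of each BCL2 family member in CPM (log axis) in the 30 libraries (points, coloured by cell line), with the mean and SD of each group of 3 in black. BMF in ASPC1 moves from 1.34 CPM with siCTRL to 10.8 CPM in the libraries labelled siZNF274, while MCL1 spans a narrow band in all groups.

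The members differed most in how far their mRNA ranged over the 10 groups. BCL2, which holds BH3-only proteins in check, spanned 40.5-fold between its lowest and highest group means, BMF 18.3-fold, BBC3 9.15-fold and BIK 7.99-fold. BCL2L1 spanned 5.07-fold and BAK1 4.17-fold. The span was 2.52-fold for BCL2L11, 2.47-fold for PMAIP1, 1.93-fold for BAX and 1.75-fold for MCL1.

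With DMSO, all 10 members were expressed in both CFPAC1 and ASPC1 and all 10 differed in level, against 77.4% of the 19094 genes tested in edgeR. BCL2 was 5.94-fold higher in CFPAC1 (95% interval 4.57 to 7.74), BMF 5.28-fold (4.45 to 6.27), BIK 2.88-fold (2.41 to 3.45) and BCL2L1 2.49-fold (2.25 to 2.75). BAK1 was 1.71-fold, PMAIP1 1.59-fold and MCL1 1.39-fold higher. BCL2L11, encoding BIM, was lower in CFPAC1, at a ratio of 0.398 (0.352 to 0.450), as were BBC3 (0.514) and BAX (0.727). The median log2 difference of all genes was 0.061 here, and 0.12 and 0.16 with the scaling of DESeq2 and of the upper quartile. All 10 differences kept their direction and their call under both. As in every bulk comparison here, fewer cells with a transcript and less of it per cell cannot be told apart, and Panc3.27 had no DMSO group and was not tested against the others.

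With siRNA in ASPC1, 4 of the 10 members passed the test in the libraries labelled siZNF274, against 45.7% of 16186 genes: BMF and PMAIP1 rose (21.5% of genes were higher), BIK and BCL2L1 fell (24.2% were lower). In CFPAC1, 3 members rose, BMF, BBC3 and BAK1, and none fell, where 24.8% of 18103 genes were called, 11.6% higher and 13.2% lower. Both shares of members were near the background. The median log2 fold of the 5 BH3-only members was 0.30 in ASPC1 and 0.24 in CFPAC1, beside -0.0002 and -0.0062 over all genes. That of the 3 antiapoptotic members was -0.035 and -0.11.

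Azacitidine changed 4 members in ASPC1, against 35.8% of genes (17.2% higher and 18.6% lower): BMF, PMAIP1 and MCL1 rose and BIK fell. In CFPAC1 it changed 2 members, against 25.7% of genes (12.2% higher and 13.5% lower): BCL2L11 rose and BCL2L1 fell. No member passed the test with azacitidine in both lines. In Panc3.27, overexpression of ZNF274 raised 8 of the 10 members, all 5 BH3-only and all 3 antiapoptotic genes, where 36.9% of 17350 genes were called in either direction, 19.8% were higher and 17.1% lower. BAX and BAK1 did not pass there, and 0 members fell.

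The siRNA controls also differed from the DMSO controls. In ASPC1, 4 members differed between siCTRL and DMSO, against 30.1% of genes: BBC3, MCL1 and BAK1 were higher with siCTRL and BCL2L11 was lower. In CFPAC1, 2 members differed, against 15.5% of genes: BAK1 was higher and BCL2L1 lower with siCTRL. These contrasts share their libraries with the siRNA and azacitidine comparisons, so their values are set side by side below and not combined.

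**Figure D2:**
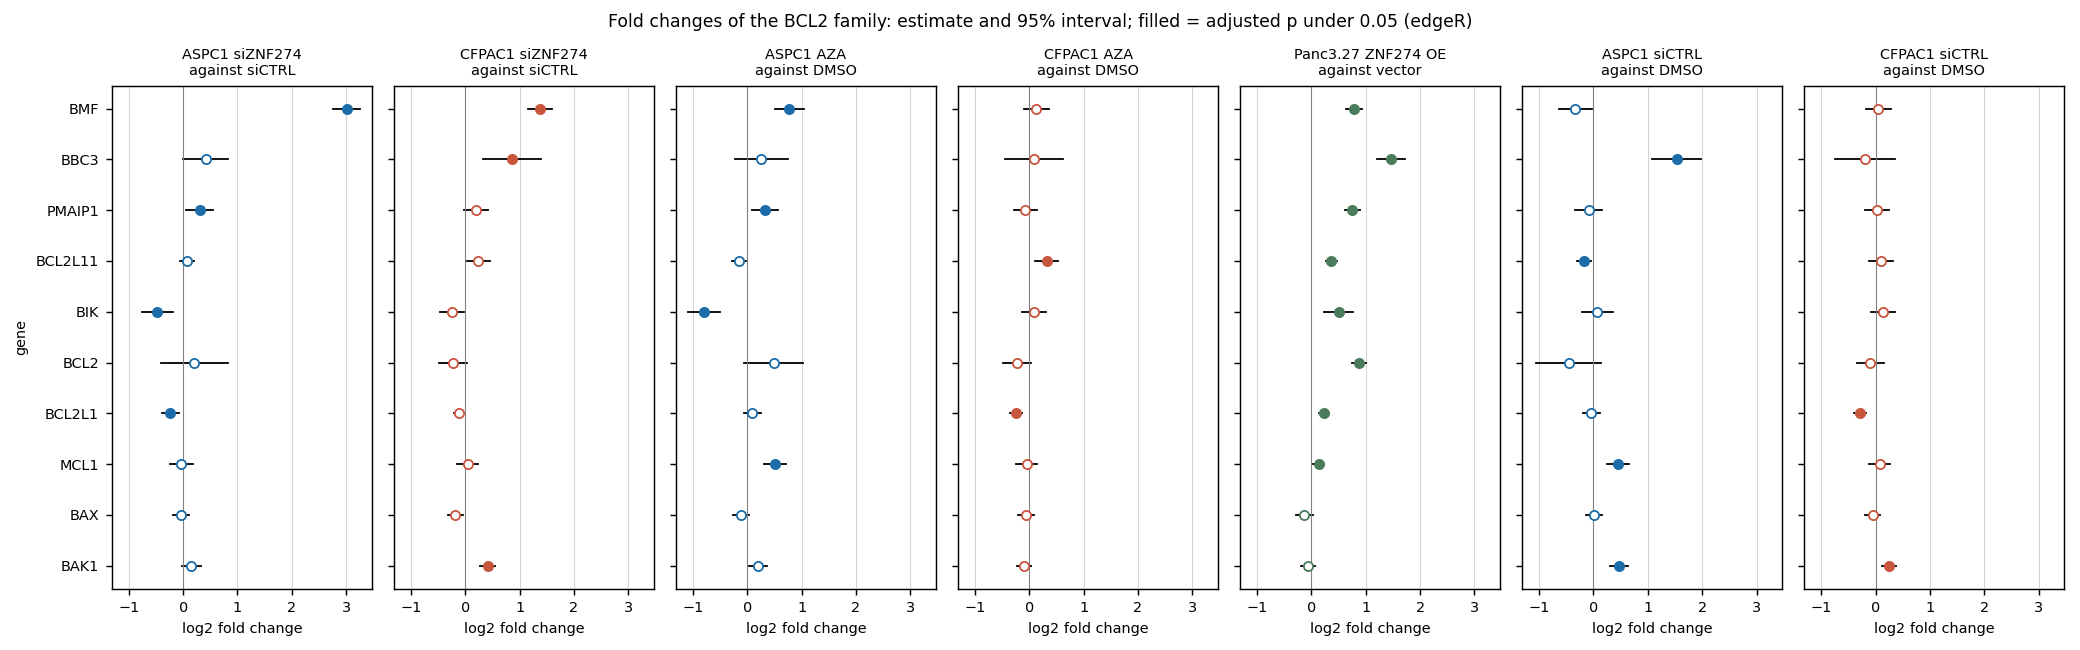
Log2 fold change of the 10 members with 95% intervals in 7 comparisons, filled where the edgeR adjusted p was under 0.05. BMF is the only member filled with siZNF274 in both ASPC1 and CFPAC1, and in Panc3.27 all members above BAX and BAK1 are filled to the right of 0.

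BMF encodes a BH3-only protein that is held at the cytoskeleton by the dynein light chain DYNLL2 until stress releases it. In ASPC1 its level was 1.30, 1.35 and 1.38 CPM with siCTRL and 9.94, 11.0 and 11.5 CPM in the libraries labelled siZNF274. With DMSO it was 1.61, 1.80 and 1.68 CPM, and with azacitidine 3.09, 2.76 and 2.88 CPM. None of these 4 groups overlapped, and both control groups were lowest, with 40 to 61 counts a library. BMF rose 8.03-fold in the siRNA comparison (6.75 to 9.56, edgeR adjusted p = 3.76e-11). It rose 1.71-fold with azacitidine (1.42 to 2.06, edgeR adjusted p = 1.51e-04). It was 0.794-fold with siCTRL relative to DMSO, which did not pass the test (edgeR adjusted p = 0.110).

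CFPAC1 started from a higher BMF level and had the smaller fold in the siRNA comparison, though not the smaller rise in CPM. Its libraries held 9.49, 8.85 and 9.54 CPM of BMF with siCTRL and 27.7, 24.1 and 21.8 CPM when labelled siZNF274. With DMSO they held 8.45, 10.4 and 8.28 CPM, and with azacitidine 9.64, 9.73 and 10.5 CPM. The siRNA groups were well apart, and those of DMSO and azacitidine overlapped. BMF rose 2.60-fold with the siRNA (2.23 to 3.02, edgeR adjusted p = 2.11e-07) and was 1.09-fold with azacitidine (0.934 to 1.28, edgeR adjusted p = 0.415). In Panc3.27 it was 11.0, 10.2 and 10.4 CPM with vector and 17.8, 18.7 and 18.2 CPM with overexpression, a rise of 1.72-fold (1.56 to 1.91, edgeR adjusted p = 1.03e-06). BMF thus rose both in the libraries labelled siZNF274 and with overexpression of ZNF274. In order of level, the libraries labelled siZNF274 of CFPAC1 were highest and the overexpression group next. The libraries labelled siZNF274 of ASPC1, the Panc3.27 vector group and azacitidine-treated CFPAC1 followed, and these neighbours overlapped.

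BBC3 encodes PUMA, which binds all antiapoptotic members and is a target of p53 and of the stress factors ATF4 and DDIT3. In ASPC1 it was 3.63, 4.96 and 5.36 CPM with DMSO, 8.44, 13.3 and 18.5 CPM with siCTRL, and 17.3, 16.8 and 19.2 CPM in the libraries labelled siZNF274. The siCTRL libraries were spread widely, all were above DMSO, and replicate 3 lay within the range of the libraries labelled siZNF274. BBC3 was 2.89-fold higher with siCTRL than with DMSO (2.10 to 3.96, edgeR adjusted p = 5.30e-05), and 1.33-fold in the siRNA comparison, which did not pass (edgeR adjusted p = 0.0908). Without siCTRL replicate 3 the siRNA difference was 0.71 on the log2 scale and passed (edgeR adjusted p = 0.00211).

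The same siCTRL libraries stood out for genes of the amino acid and ATF4 stress response. TRIB3, a target and inhibitor of ATF4 and DDIT3, was 172, 198 and 296 CPM with siCTRL and 23.1, 24.3 and 25.1 CPM with DMSO in ASPC1. SESN2 was 67.9, 73.1 and 113 CPM against 4.89, 6.28 and 7.07 CPM, and CHAC1 was 32.6, 32.8 and 50.7 CPM against 2.74, 2.51 and 2.33 CPM. Replicate 3 was the highest siCTRL library for these 3 genes as for BBC3. In the libraries labelled siZNF274, TRIB3 was 102, 108 and 133 CPM. The part of this response in the BBC3 levels was not tested.

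In CFPAC1, BBC3 was 1.23, 2.13 and 2.90 CPM with siCTRL and 3.78, 4.60 and 3.09 CPM in the libraries labelled siZNF274. The groups did not overlap, though the margin was small, at 50 to 198 counts a library. BBC3 rose 1.81-fold (1.25 to 2.62, edgeR adjusted p = 0.0196), but the call was lost without siCTRL replicate 1 (0.0643), siCTRL replicate 2 (0.0559) or siZNF274 replicate 2 (0.0965). With DMSO it was 2.24, 1.88 and 3.12 CPM and with azacitidine 3.01, 2.19 and 2.48 CPM, overlapping and 1.06-fold. In Panc3.27 the gene rose from 5.98, 6.20 and 8.49 CPM with vector to 17.3, 18.8 and 21.1 CPM with overexpression. This 2.76-fold rise (2.32 to 3.30, edgeR adjusted p = 5.47e-07) had the highest fold of the 10 members in that line. TRIB3 (2.61-fold), DDIT3 (2.61-fold), CHAC1 (3.35-fold) and SESN2 (2.28-fold) rose in the same libraries, and their part in the result was not tested.

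PMAIP1 encodes NOXA, which binds MCL1 and speeds its degradation. In ASPC1 it was 19.9, 14.0 and 19.5 CPM with siCTRL and 20.9, 21.4 and 23.3 CPM in the libraries labelled siZNF274. With DMSO it was 20.8, 17.9 and 18.0 CPM and with azacitidine 25.7, 21.4 and 24.3 CPM. Neither pair of groups overlapped, but the gaps were small. PMAIP1 rose 1.23-fold with the siRNA (1.04 to 1.46, edgeR adjusted p = 0.0404) and 1.26-fold with azacitidine (1.07 to 1.48, edgeR adjusted p = 0.0304). The siRNA call was lost without siCTRL replicate 2 (0.197) or any 1 of siZNF274 replicates 1 (0.0545), 2 (0.0714) and 3 (0.139). The azacitidine call was lost without AZA replicate 1 (0.119), AZA replicate 3 (0.0818), DMSO replicate 2 (0.0943) or DMSO replicate 3 (0.0806).

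PMAIP1 was higher in CFPAC1, between 25.8 and 40.5 CPM in its 12 libraries, and passed no treatment test there (1.15-fold with the siRNA and 0.950-fold with azacitidine). In Panc3.27 it rose from 13.7, 15.0 and 14.6 CPM to 23.9, 24.4 and 24.9 CPM with overexpression. The 2 groups were far apart, and the rise was 1.69-fold (1.53 to 1.86, edgeR adjusted p = 1.06e-06).

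BCL2L11 encodes BIM, a BH3-only protein that binds all antiapoptotic members and can activate BAX directly. It stood at 16.2 to 25.5 CPM over the 12 CFPAC1 libraries, against 36.8 to 45.6 CPM in ASPC1 and 34.0 to 44.5 CPM in Panc3.27. In CFPAC1 it rose from 16.7, 17.6 and 18.1 CPM with DMSO to 22.7, 22.0 and 20.8 CPM with azacitidine. The groups did not overlap and the rise was 1.25-fold (1.08 to 1.44, edgeR adjusted p = 0.0286). This call was lost without AZA replicate 1 (0.0951), AZA replicate 2 (0.0745), DMSO replicate 1 (0.0903) or DMSO replicate 2 (0.0589). In ASPC1 azacitidine gave the opposite sign, 0.904-fold, which did not pass (edgeR adjusted p = 0.0718).

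The siRNA comparisons gave 1.05-fold in ASPC1 and 1.18-fold in CFPAC1 for BCL2L11, and neither passed (edgeR adjusted p = 0.341 and 0.0933). In CFPAC1 it passed without siCTRL replicate 1 (0.0099) or siZNF274 replicate 2 (0.0484). Between siCTRL and DMSO in ASPC1 it was 0.891-fold (edgeR adjusted p = 0.0485), a call lost when any 1 of the 6 libraries was left out (adjusted p from 0.0604 to 0.176), with DESeq2 size factors (0.0513), with the DESeq2 test (adjusted p = 0.0520), with no filter on low counts (0.0698) and with only the 2 groups (0.0781). With overexpression in Panc3.27, BCL2L11 rose from 34.3, 34.0 and 34.0 CPM to 44.4, 44.5 and 43.1 CPM, a tight 1.29-fold (1.20 to 1.38, edgeR adjusted p = 5.38e-05).

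BIK encodes a BH3-only protein of the endoplasmic reticulum that is regulated at the mRNA level in epithelial cells. It fell in both treatment comparisons in ASPC1. With azacitidine it went from 7.36, 8.50 and 9.26 CPM to 4.71, 5.28 and 4.43 CPM, without overlap. The ratio was 0.575 (0.468 to 0.705, edgeR adjusted p = 2.98e-04). With siCTRL it was 7.41, 8.30 and 10.7 CPM and in the libraries labelled siZNF274 6.71, 6.69 and 5.53 CPM, a ratio of 0.719 (0.588 to 0.878, edgeR adjusted p = 0.00927). That call was lost without siCTRL replicate 3 (0.0563) or siZNF274 replicate 3 (0.0536).

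In CFPAC1, BIK stood at 21.2 to 29.9 CPM in its 12 libraries. It was 1.06-fold with azacitidine and 0.847-fold with the siRNA, and neither passed (edgeR adjusted p = 0.600 and 0.108). The siRNA difference passed without siCTRL replicate 1 (0.0228), and that between siCTRL and DMSO, 1.10-fold, passed without DMSO replicate 3 (0.048). In Panc3.27 BIK rose from 3.45, 2.96 and 3.59 CPM to 4.70, 4.36 and 5.14 CPM, or 1.42-fold (1.18 to 1.71, edgeR adjusted p = 0.00589). Ductal epithelial markers moved in the same libraries where BIK fell in ASPC1: 5 of 7 fell with azacitidine and 5 of 7 with the siRNA, and 1 rose in each. Over all genes, 18.6% and 24.2% fell and 17.2% and 21.5% rose. Their summed level was 9898 CPM with azacitidine and 15075 CPM with DMSO, and 7804 CPM in the libraries labelled siZNF274 and 11020 CPM with siCTRL. KRT8 and KRT18 reached 7693 and 4056 CPM in ASPC1, so the sums rest mainly on such highly counted genes. In CFPAC1, where BIK passed neither test, 2 of 7 fell with azacitidine and 6 of 7 with the siRNA, against 13.5% and 13.2% of all genes. The part of these markers in the BIK result was not tested.

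BCL2, the founding antiapoptotic member, divided the lines. In ASPC1 it was 0.767 to 2.01 CPM over 12 libraries, with 26 to 68 counts each. In CFPAC1 it was 4.87 to 7.57 CPM. In Panc3.27 it was 20.4, 18.5 and 19.3 CPM with vector and 37.1, 36.9 and 33.3 CPM with overexpression, so no library of one line overlapped another line. Overexpression raised BCL2 1.84-fold (1.68 to 2.01, edgeR adjusted p = 1.07e-07). No treatment in ASPC1 or CFPAC1 passed the test. The siRNA gave 1.15-fold in ASPC1 (0.753 to 1.77) and 0.858-fold in CFPAC1 (0.719 to 1.02). Azacitidine gave 1.40-fold (0.962 to 2.04) and 0.854-fold (0.717 to 1.02). The azacitidine difference in ASPC1 passed without DMSO replicate 1 (0.79 on the log2 scale, edgeR adjusted p = 0.0409), and the siRNA difference in CFPAC1 without siZNF274 replicate 3 (-0.38, edgeR adjusted p = 0.0292).

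BCL2L1 gives the antiapoptotic BCL-XL and, by alternative splicing, the shorter proapoptotic BCL-XS, which counts per gene cannot separate. It fell in CFPAC1 from 689, 711 and 720 CPM with DMSO to 598, 608 and 589.99 CPM with azacitidine and to 536, 600.3 and 582 CPM with siCTRL. The DMSO libraries were above all other CFPAC1 libraries. The ratio was 0.843 with azacitidine (0.781 to 0.909, edgeR adjusted p = 0.00220) and 0.818 for siCTRL relative to DMSO (0.759 to 0.883, edgeR adjusted p = 9.79e-04). Both comparisons share the DMSO libraries. In the CFPAC1 libraries labelled siZNF274 it was 517, 539 and 567 CPM, 0.930-fold of siCTRL, which did not pass (edgeR adjusted p = 0.153).

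In ASPC1, BCL2L1 was 231, 278 and 309.6 CPM with siCTRL and 219, 242 and 236 CPM in the libraries labelled siZNF274, and the groups overlapped. It fell to a ratio of 0.851 (0.760 to 0.953, edgeR adjusted p = 0.0208), a call lost without siCTRL replicate 2 (0.0734), siCTRL replicate 3 (0.144) or siZNF274 replicate 1 (0.0953). With azacitidine it was 1.07-fold (edgeR adjusted p = 0.373). Panc3.27 had the lowest level, 136 to 142 CPM with vector and 157 to 169.9 CPM with overexpression, a rise of 1.17-fold (1.10 to 1.25, edgeR adjusted p = 8.28e-04).

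MCL1 encodes a short-lived antiapoptotic protein whose mRNA also turns over quickly. In ASPC1 it was 441, 426 and 401 CPM with DMSO, 630.2, 652 and 522 CPM with azacitidine, 629.6, 482 and 620.5 CPM with siCTRL, and 607, 509 and 575 CPM in the libraries labelled siZNF274. The DMSO group was below all other ASPC1 libraries, and the other 3 groups overlapped. MCL1 rose 1.42-fold with azacitidine (1.23 to 1.64, edgeR adjusted p = 7.41e-04) and was 1.37-fold higher with siCTRL than with DMSO (1.18 to 1.58, edgeR adjusted p = 0.00235). Both values rest on the same DMSO libraries. In the siRNA comparison it was 0.976-fold (edgeR adjusted p = 0.798).

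In CFPAC1, MCL1 ranged from 532 to 759 CPM and passed no test (1.03-fold with the siRNA and 0.969-fold with azacitidine). In Panc3.27 it was 361, 373 and 377 CPM with vector and 403, 402 and 418 CPM with overexpression. The rise of 1.10-fold (1.02 to 1.18, edgeR adjusted p = 0.0355) was lost when any 1 library was left out. Without vector replicates 1, 2 and 3 in turn the adjusted p was 0.139, 0.0903 and 0.0714, and without OE replicates 1, 2 and 3 it was 0.145, 0.0827 and 0.213.

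Of the 2 effectors, BAX, a cytosolic protein and p53 target, passed no treatment test in any line. It was 49.5 to 61.6 CPM in ASPC1, 33.4 to 45.3 CPM in CFPAC1 and 27.7 to 34.6 CPM in Panc3.27. Its folds over the 7 comparisons of treatments and controls ran from 0.882 (CFPAC1, siRNA, edgeR adjusted p = 0.0595) to 1.01 (ASPC1, siCTRL against DMSO). With overexpression it was 0.914-fold (0.822 to 1.02, edgeR adjusted p = 0.169), and this passed without vector replicate 1 (-0.23 on the log2 scale, edgeR adjusted p = 0.00576).

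BAK1, the effector resident on mitochondria, rose in CFPAC1 from 64.1, 70.03 and 68.5 CPM with siCTRL to 96.2, 89.6 and 88.6 CPM in the libraries labelled siZNF274. The groups were well separated, and the rise was 1.33-fold (1.21 to 1.46, edgeR adjusted p = 1.92e-04). In ASPC1 the same comparison gave 1.11-fold (0.990 to 1.25, edgeR adjusted p = 0.128), which passed without siCTRL replicate 3 (0.0185). BAK1 was higher with siCTRL than with DMSO in both lines. In ASPC1 it was 40.5, 46.5 and 51.3 against 30.5, 33.1 and 36.6 CPM, or 1.38-fold (1.23 to 1.56, edgeR adjusted p = 3.53e-04). In CFPAC1 it was 1.19-fold (1.08 to 1.30, edgeR adjusted p = 0.0144), lost without siCTRL replicate 2 (0.0772), DMSO replicate 1 (0.0752) or DMSO replicate 2 (0.0715). Azacitidine gave 1.15-fold in ASPC1 (edgeR adjusted p = 0.0708), which passed without DMSO replicate 3 (0.023), and 0.934-fold in CFPAC1. In Panc3.27 it stayed between 21.4 and 24.3 CPM (0.957-fold, 0.871 to 1.05).

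**Figure D3:**
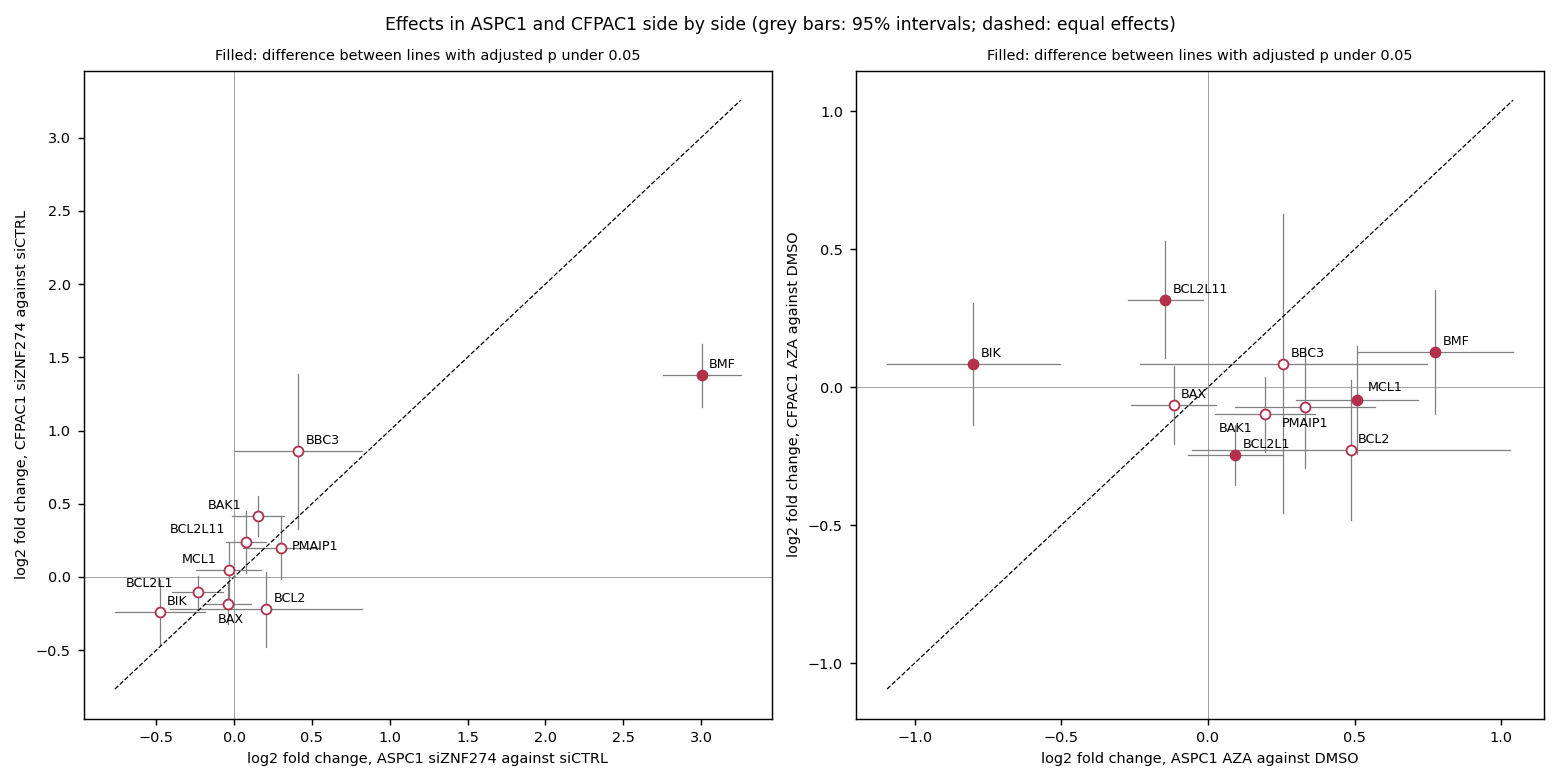
Log2 fold change of each member in CFPAC1 (vertical axis) against ASPC1 (horizontal axis), for the libraries labelled siZNF274 (left) and azacitidine (right), with 95% intervals and a dashed line of equal effects. Filled points differ between the lines at an adjusted p under 0.05: BMF alone on the left, and BMF, BCL2L11, BIK, BCL2L1 and MCL1 on the right.

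The effects were then set against each other across lines, in 1 fit of 24 libraries that tests the difference of the effects. For the siRNA, 1 of 10 members differed between CFPAC1 and ASPC1, against 16.6% of 19094 genes: the fold of BMF was smaller in CFPAC1 by a factor of 0.327 (0.260 to 0.411). BAK1 (edgeR adjusted p = 0.077) and the other 8 members did not pass. Without ASPC1 siCTRL replicate 1, BAK1 (0.0126) and BCL2L1 (0.0281) passed as well. For azacitidine, 5 of 10 members differed, against 17.3% of genes. BIK (a factor of 1.85) and BCL2L11 (1.39) had the higher fold in CFPAC1, and BMF (0.642), MCL1 (0.685) and BCL2L1 (0.794) the higher fold in ASPC1.

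The call for BCL2L1 was lost without ASPC1 DMSO replicate 1 (edgeR adjusted p = 0.0529). Others were gained by leaving out a library: BCL2 without ASPC1 AZA replicate 3 (0.0228) or ASPC1 DMSO replicate 1 (0.011), BAK1 without ASPC1 DMSO replicate 3 (0.0315) or CFPAC1 DMSO replicate 1 (0.0484), and PMAIP1 without CFPAC1 DMSO replicate 2 (0.0359).

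Some members share their locus with other genes, and the strand setting of the counting is not given, although the library kit keeps strand. BMF-AS1, antisense to BMF, had 0 to 4 counts in any library, so its reads are few beside those of BMF. MIR4435-2HG, which spans part of the BCL2L11 locus, had 694 to 3693 counts. It moved against BCL2L11 where BCL2L11 was called with a treatment, with a log2 change of -0.43 with azacitidine in CFPAC1 and -0.25 with overexpression. ADAMTSL4 and ADAMTSL4-AS1 overlap MCL1. ADAMTSL4 rose with azacitidine in ASPC1 (0.79 on the log2 scale, from 2.13 to 3.68 CPM), as MCL1 did. Both also rose with overexpression (0.47 for ADAMTSL4, from 62.9 to 87.0 CPM). With siCTRL relative to DMSO in ASPC1, ADAMTSL4 (0.54) and ADAMTSL4-AS1 (1.02) were higher, as MCL1 was. The part of these genes in the MCL1 counts was not tested. BBC3, PMAIP1, BIK, BAX and BAK1 overlapped no other gene of the table.

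For the 3 members with the widest range, the genes of most similar pattern over the 10 group means were sought among 14527 genes. For BCL2 these were ISL2 (Pearson r = 0.992), NUP153-AS1 (0.992) and RP11-519G16.3 (0.991). For BMF they were ZNF585A (0.972), S100PBP (0.968) and ZNF84 (0.963). For BBC3 they were DOCK6 (0.974), SIX5 (0.974) and RP11-875O11.3 (0.967). The 10 points share lines and libraries, and the values are descriptions only.

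Around the 10 members, 13 further BCL2 relatives were followed, with 10 to 12 of them tested in a line, and genes named with a fold under 2 here and below were chosen after their values were seen. Over all genes, 21.5% were higher and 24.2% lower with the siRNA in ASPC1 and 11.6% and 13.2% in CFPAC1. With azacitidine these shares were 17.2% and 18.6%, and 12.2% and 13.5%, and with overexpression 19.8% and 17.1%. BCL2L14 and BCL2L15, 2 less studied relatives, fell in ASPC1 with azacitidine (ratios 0.232 and 0.319) and in the libraries labelled siZNF274 (0.455 and 0.529). BCL2L10, an antiapoptotic relative, was low throughout and rose with azacitidine in ASPC1 (3.13-fold, from 0.217 to 0.683 CPM) and CFPAC1 (2.02-fold), and in the CFPAC1 libraries labelled siZNF274 (2.15-fold). BNIP3L, a mitophagy receptor, rose 1.91-fold and 1.30-fold in the libraries labelled siZNF274 of ASPC1 and CFPAC1. With overexpression, the BH3-only gene HRK rose 2.01-fold (3.77 to 7.59 CPM), BCL2L14 2.32-fold, BCL2L2 1.35-fold and BCL2L13 1.18-fold, while BNIP3 (0.522), BNIP3L (0.830) and BID (0.881) fell. BOK, an effector relative, rose in ASPC1 with both (1.25-fold with the siRNA and 1.32-fold with azacitidine).

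Downstream of the mitochondrion, the 18 apoptosome, caspase and IAP genes moved little and in both directions. In the libraries labelled siZNF274, 5 rose and 4 fell in ASPC1, and 2 rose and 4 fell in CFPAC1, against 45.7% and 24.8% of all genes called. APAF1 (1.31-fold and 1.19-fold) rose in both lines, and BIRC5, the mitotic IAP survivin, fell in both (0.657 and 0.792). Azacitidine raised 0 and lowered 3 of them in ASPC1 (CASP6, BIRC2, BIRC3), and raised 2 (ENDOG, BIRC3) and lowered 2 (BIRC2, BIRC6) in CFPAC1. Overexpression raised 3 (VDAC2, XIAP and BIRC3) and lowered 5, among them CYCS, APAF1, CASP6 and VDAC3. The medians lay between -0.026 and 0.043 on the log2 scale in these 5 comparisons, and those of all genes between -0.0062 and 0.013.

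The death receptor arm, the other route into caspases, moved upward in CFPAC1: 7 of 13 genes rose and 0 fell in the libraries labelled siZNF274, where 11.6% of all genes rose, and the median log2 fold was 0.17 beside -0.0062 over all genes. The ligand TNFSF10 (TRAIL) rose 2.05-fold there, from 17.2 to 36.0 CPM, and its receptor TNFRSF10B 1.53-fold. Its decoy receptor TNFRSF10C stood at 4.64 ± 0.802 CPM with siCTRL and 8.28 ± 0.189 CPM in the same libraries labelled siZNF274 (SD, n = 3). In ASPC1, 5 rose and 3 fell (median 0.18), TNFRSF10B was 1.28-fold, and TNFSF10 fell to 0.384-fold from a level of 0.806 CPM. With overexpression 4 rose, among them TNFSF10 (1.74-fold) and TNFRSF10B (1.39-fold), and 4 fell, among them CASP8 (0.817). Azacitidine raised the decoy receptor TNFRSF10C 2.41-fold in ASPC1 and 1.25-fold in CFPAC1.

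Among 19 regulators of the family, 7 rose and 8 fell in the ASPC1 libraries labelled siZNF274, where 45.7% of all genes were called. FOXO4, a factor that can induce BCL2L11 and BBC3, rose 2.23-fold there and 1.57-fold in CFPAC1. TP63 fell in both lines (0.354 and 0.323), from levels under 1 CPM, and DYNLL2, the tether of the BMF protein, fell to 0.869 and 0.829. In CFPAC1, 4 rose and 4 fell, against 24.8% of all genes called. Overexpression raised 9 and lowered 4, against 36.9%, with DDIT3, TRIB3 and CHAC1 the genes of highest fold and ATF4 at 1.32-fold. In these Panc3.27 libraries TP63 stood at 420 ± 31.8 CPM with vector and 718 ± 39.1 CPM with overexpression (SD, n = 3). TP73 stood at 23.2 ± 0.490 and 17.6 ± 0.765 CPM. Azacitidine lowered ATF4 in both lines (0.741 in ASPC1 and 0.689 in CFPAC1), within 5 rises and 2 falls in ASPC1 and 1 rise and 7 falls in CFPAC1, against 35.8% and 25.7% of all genes called.

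The 22 p53 target genes did not move as one. In the ASPC1 libraries labelled siZNF274, 8 of 21 tested rose and 4 fell, against 45.7% of all genes called. TP53INP1 rose 4.81-fold there and 2.82-fold in CFPAC1, while MDM2, the negative regulator of p53, fell to 0.491 and 0.581. SESN2 fell to 0.456 in ASPC1, relative to the raised siCTRL level given above. In CFPAC1, 3 rose (ZMAT3, TP53INP1, TNFRSF10B) and 3 fell (MDM2, DDB2, TRIAP1), of 22 tested and against 24.8% of all genes called. With azacitidine 3 rose and 4 fell in ASPC1, and 2 rose and 1 fell in CFPAC1, against 35.8% and 25.7% of all genes called, and CCNG1 fell in both lines (0.580 and 0.756). With overexpression 8 rose, SESN2 with the highest fold of 2.28, and 6 fell, among them CDKN1A (0.917) and MDM2 (0.869), against 36.9% of all genes called.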

How the data were processed

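The authors deposited raw counts, whole numbers per gene for each of 30 RNA-seq libraries, with 31415743 to 43383141 counts a library. Per the submitters' processing notes, reads were processed with STAR 2.7.10b and FastQC on hg38, and per the labels' protocols the libraries were ribosomal-RNA-depleted and stranded. The counting program and its strand setting are not given in these sources. H3K9me3 regions came from the list deposited by the authors, where the deposited score is the same in every row and was not used.

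Each line was fitted by itself (12, 12 and 6 libraries) with edgeR 4.0.16 in R 4.3.3: filterByExpr on the group, TMM scaling, the quasi-likelihood test and Benjamini-Hochberg adjustment over all tested genes at 0.05. Values called "adjusted p" come from this test, intervals are at 95%, and a gene "rose" or "fell" where it passed. Differences between lines and the DMSO baseline came from 1 fit over 24 libraries. The method was tested on simulated data. Alternatives were DESeq2 1.42.0, other scalings and filters, a replicate block, only the groups compared, and leaving out each library.

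Same-numbered replicates deviated together between siCTRL and DMSO in ASPC1 (r = 0.534, 0.151 and 0.438), each above its r with another number. In the CFPAC1 siRNA comparison (0.509, 0.216 and 0.159) this held for replicate 1 only. Replicates 2 and 3 had a higher r with another number (0.319 and 0.232). The main fits used the group only, without pairing. The block changed no member's call in these 2 comparisons. All 10 members are reported. Other genes are named where they changed at least 2-fold at 0.05 without overlap between groups, at most 3 per list and direction, or where stated otherwise. Some genes of the lists are not reported here by name. Members and lists were chosen with earlier results of these data known.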

Additional observations from a re-analysis of the deposited data

Results flagged for a closer look

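In 6 cases the effect of a treatment on a member differed between CFPAC1 and ASPC1 by a test of the difference itself, in the edgeR fit over 24 libraries. Values are log2 differences, CFPAC1 minus ASPC1. For the siRNA, BMF differed by -1.61 (edgeR adjusted p = 3.92e-08): it rose in both lines, with the smaller fold in CFPAC1. For azacitidine, BMF differed by -0.64 (0.00733), MCL1 by -0.55 (0.00826) and BCL2L1 by -0.33 (0.0165), while BIK differed by 0.89 (8.14e-04) and BCL2L11 by 0.47 (0.00597). BMF and MCL1 rose and BIK fell in ASPC1 with azacitidine, and none of these 3 passed in CFPAC1. BCL2L1 fell and BCL2L11 rose in CFPAC1, and neither passed in ASPC1.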

How the results depend on the processing

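Of 1380 values of single members under an alternative, 1266 kept their direction and their side of the threshold, 45 lost and 35 gained a call, and 34 changed sign. Each of the 34 belonged to a member that had not passed. Members called, of 10, became 2 instead of 4 (ASPC1, siRNA) and 1 instead of 2 (CFPAC1, siCTRL against DMSO) with only the 2 groups compared, where the genes called in the latter fell from 2810 to 1604. The calls lost were those of PMAIP1 (0.0603) and BCL2L1 (0.0653), and of BAK1 (0.0616). The ASPC1 siRNA count was 6 with upper quartile scaling, which added BBC3 (0.0445) and BAK1 (0.0298), and 5 with no filter, which added BBC3 (1.46e-04). BAK1 passed with azacitidine in ASPC1 with upper quartile scaling (0.0252), no filter (0.0353) and only the 2 groups (0.0271). They became 6 instead of 3 (CFPAC1, siRNA) and 8 instead of 5 (azacitidine difference between lines) with no filter on low counts, and 2 instead of 1 (siRNA difference between lines) with DESeq2. Same-numbered replicates did not deviate together throughout (r from -0.42 to 0.24) in the ASPC1 siRNA, ASPC1 azacitidine and overexpression comparisons. With the replicate block there, BBC3 (ASPC1, siRNA, edgeR adjusted p = 0.008) passed, as did BCL2L11 and BAK1 (ASPC1, azacitidine, 0.0399 and 0.0433). MCL1 (overexpression, 0.0503) did not pass. No other member's call changed with the block. MCL1 also did not pass there with DESeq2's scaling (0.0672). Upper quartile scaling turned MCL1 (0.018) and BAX (0.015) in the ASPC1 siRNA comparison and BAX (-0.019) between siCTRL and DMSO, and gave 2940 higher and 1914 lower genes in place of 2207 and 2445 with azacitidine in CFPAC1.

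Leaving out each library in turn gave these ranges of members called and of genes called. ASPC1, siRNA: 2 to 4 and 6302 to 7330. CFPAC1, siRNA: 2 to 4 and 3227 to 4755. ASPC1, azacitidine: 3 to 5 and 4629 to 5745. CFPAC1, azacitidine: 1 to 2 and 3236 to 4882. Overexpression: 7 to 8 and 5147 to 6218. ASPC1, siCTRL against DMSO: 3 to 3 and 3793 to 5194. CFPAC1, siCTRL against DMSO: 1 to 3 and 2017 to 3327. Difference between lines: 1 to 3 and 2615 to 3225 (siRNA), 5 to 6 and 2816 to 3142 (azacitidine). Baseline: 10 to 10 and 14431 to 14581.

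Signs of log2 folds that turned without 1 library had these ranges. ASPC1, siRNA: MCL1 -0.14 to 0.036, BAX -0.11 to 0.034. CFPAC1, siRNA: MCL1 -0.076 to 0.13. CFPAC1, azacitidine: BBC3 -0.061 to 0.31, PMAIP1 -0.17 to 0.011, BIK -0.00072 to 0.24, MCL1 -0.092 to 0.0095, BAX -0.13 to 0.0059. ASPC1, siCTRL against DMSO: PMAIP1 -0.18 to 0.065, BIK -0.087 to 0.19, BCL2L1 -0.14 to 0.072, BAX -0.049 to 0.090. CFPAC1, siCTRL against DMSO: BMF -0.017 to 0.17, BBC3 -0.51 to 0.072, PMAIP1 -0.082 to 0.10, BCL2L11 -0.016 to 0.18, MCL1 -0.0044 to 0.13, BAX -0.12 to 0.012. Difference between lines, siRNA: PMAIP1 -0.19 to 0.064, MCL1 -0.033 to 0.21. Difference between lines, azacitidine: BBC3 -0.32 to 0.038, BAX -0.021 to 0.12. The cause of these changes was not tested. BCL2 in ASPC1 and BBC3 in CFPAC1 rest on few counts, which limits what these libraries can show for them.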

Other observations

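BNIP3, a hypoxia-induced relative of the family that marks mitochondria for removal, was all but missing from ASPC1. Its DMSO, siCTRL and siZNF274-labelled libraries held 0 to 4 counts, and the 3 azacitidine libraries 7, 9 and 13 counts. CFPAC1 with DMSO held 4255 to 4821 counts a library (117 ± 9.91 CPM, SD, n = 3) and Panc3.27 with vector 2701 to 2795 counts. The gene did not pass the filter on low counts in ASPC1, so the azacitidine difference was not tested. HRK, a BH3-only gene best known from neurons, was found mainly in Panc3.27, with 150 to 177 counts a library with vector and 257 to 338 with overexpression, against at most 8 counts in any ASPC1 or CFPAC1 library. BCL2L15 showed the opposite pattern, with 9.58 CPM in ASPC1 and 13.8 CPM in CFPAC1 with DMSO and 1 to 3 counts in each Panc3.27 library.

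At baseline the genes around the family also differed between the lines. In the edgeR fit over 24 libraries, the TRAIL ligand TNFSF10 was 9.21-fold and its decoy receptor TNFRSF10C 11.9-fold higher in CFPAC1 with DMSO than in ASPC1. Of the 13 death receptor genes, 3 were higher and 9 lower there. Over all 19094 genes tested, 7835 were higher and 6938 lower, so most genes differed between the lines. FOXO1 was lower in CFPAC1 at a ratio of 0.321, and the p53 targets BTG2 (0.148) and RRM2B (0.322) were lower while PHLDA3 (7.53-fold) and GADD45A (3.15-fold) were higher.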
